A study of Mus musculus with 24 samples.

Results

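The tumor necrosis factor (TNF) superfamily comprises ligands, most of them made as membrane proteins, and the receptors that bind them. Its members were followed in RNA from 4 cell populations sorted from mouse hindlimb muscle. Members were taken by gene symbol: every numbered Tnfsf and Tnfrsf gene, together with Tnf, Lta, Ltb, Fasl, Fas, Cd27, Cd40, Cd40lg, Cd70, Ltbr, Ngfr, Edar and Eda2r. Of 52997 symbols in the count table, 44 matched, and 42 had the required 20 or more counts over the 24 libraries. These were 15 ligands and 27 receptors. Cd40lg and Cd70, with 16 counts each, fell just outside. Tnfsf4 with 24 counts, Tnfsf15 with 31, Edar with 36 and Tnfsf18 with 40 lay just inside, and these 4 did not pass the filter on low counts. The other 38 members, 12 ligands and 26 receptors, were tested.

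All mice were of the strain C57BL/6 and aged 8 weeks, and no transgene or treatment other than the injury is given in the labels. Injured muscle was taken 1 day after cardiotoxin, a venom toxin that destroys muscle fibers, and the remaining muscle was uninjured. The populations were CD31+ cells (endothelial), CD45+ cells (hematopoietic), mesenchymal stromal cells (MSC; sorted as Sca1 and PDGFRa positive, without CD45 or CD31) and muscle stem cells (MuSC; Vcam1 positive, without CD45, CD31 or Sca1). Each population had 3 injured and 3 uninjured libraries, from 1000 sorted cells per library. The submitters call them biological replicates. Whether libraries of different groups came from the same mice is not stated.

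TNF ligands act as trimers, and many are cut from the cell surface by proteases into a soluble form. Their receptors fall into those with a death domain, which can start apoptosis or necroptosis, those that recruit TRAF adaptors and activate NF-kB, and decoys that bind ligand without signalling. In muscle, TNF from infiltrating leukocytes and the pair TWEAK (Tnfsf12) and Fn14 (Tnfrsf12a) are known for their effects on satellite cells and on fiber loss.

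The following 250 bases upstream of the RefSeq transcription start (GRCm38.p6) belong to the 3 ligands with the highest levels per kilobase of exon in injured CD45+ cells (Tnf, Ltb and Tnfsf14) and to Tnfrsf12a, the member highest in injured MuSC. Each is written 5′ to 3′ on the strand of its gene. Capitals mark the TATA box (TATAAA) and the GC box (GGGCGG) in Tnf and the GC boxes in Tnfrsf12a. They also mark the AP-1 motif (TGANTCA) in Tnfsf14 and a kappaB motif in Ltb. The kappaB letters were GGGRNNYYCC, with R for A or G and Y for C or T, found in Ltb on the opposite strand.
Tnf, chr17:35202008-35202257, minus strand: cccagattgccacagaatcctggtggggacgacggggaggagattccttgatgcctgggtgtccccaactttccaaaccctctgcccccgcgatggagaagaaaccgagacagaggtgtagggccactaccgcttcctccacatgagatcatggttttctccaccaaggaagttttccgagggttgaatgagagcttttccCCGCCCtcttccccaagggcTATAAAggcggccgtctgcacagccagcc
Ltb, chr17:35194257-35194506, plus strand: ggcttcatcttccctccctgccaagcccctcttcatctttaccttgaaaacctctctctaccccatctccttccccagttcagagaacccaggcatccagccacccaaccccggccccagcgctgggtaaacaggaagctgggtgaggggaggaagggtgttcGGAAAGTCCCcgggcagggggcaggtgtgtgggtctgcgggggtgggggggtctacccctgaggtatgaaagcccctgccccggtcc
Tnfsf14, chr17:57194182-57194431, minus strand: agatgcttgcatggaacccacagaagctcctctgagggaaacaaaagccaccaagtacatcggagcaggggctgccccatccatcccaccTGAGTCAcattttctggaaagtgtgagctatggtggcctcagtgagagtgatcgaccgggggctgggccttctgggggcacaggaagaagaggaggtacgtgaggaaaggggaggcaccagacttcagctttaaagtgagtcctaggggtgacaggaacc
Tnfrsf12a, chr17:23677450-23677699, minus strand: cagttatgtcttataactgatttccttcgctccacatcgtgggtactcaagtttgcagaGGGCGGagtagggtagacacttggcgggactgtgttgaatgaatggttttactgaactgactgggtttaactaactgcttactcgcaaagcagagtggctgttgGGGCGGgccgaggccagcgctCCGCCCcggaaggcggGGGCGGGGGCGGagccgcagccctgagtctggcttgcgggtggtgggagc

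The Tnf TATA box lay 29 to 24 bases before the start, and its GC box lay 49 to 44 bases before it. Tnfrsf12a had 5 GC boxes and no TATA box in its window. The Tnfsf14 AP-1 motif lay 160 to 154 bases before the start, and the Ltb kappaB motif lay 87 to 78 bases before it. RefSeq windows were found for 34 of the 42 members (38 windows). On either strand, the GC box stood in 17 member windows (44.7%), against 32.7% of 32851 mouse promoter windows of the same length. The TATA box stood in 7 member windows, against 12.4% of all, AP-1 in 6, against 6.75%, and kappaB in 4, against 7.25%. These are matches of letters and show no binding. The kappaB windows belonged to Ltb, Tnfrsf25, Tnfrsf8 and Tnfrsf9.

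Library totals ran from 2301202 to 7649841 counts, and expression is given as CPM, counts scaled to an equal library total with TMM factors. A gene without a count may still be present at up to 3 counts, which is 0.389 to 1.02 CPM depending on the library. These limits and the intervals below cover counting error only, since the reads carry no molecular identifiers. The sorted populations carried their own markers: 8 stromal markers summed to at least 17910 CPM in MSC libraries, 8 endothelial markers to at least 9233 CPM in CD31+ libraries, 8 muscle stem cell markers to at least 4741 CPM in MuSC libraries and 10 leukocyte markers to at least 13310 CPM in CD45+ libraries. Within CD45+ cells the makeup differed with injury. All 7 B cell, 8 T cell, 6 NK cell and 6 dendritic cell markers fell, while 4 of 8 myeloid and 5 of 7 neutrophil markers rose. Some libraries stood apart in markers of other cells: CD31+ injured library 1 (leukocyte markers 198 CPM, against 26.4 and 26.7 in the other injured CD31+ libraries), CD45+ injured library 3 (stromal markers 198 CPM, against 1.72 and 3.79) and MuSC injured libraries 2 and 3, where the stromal gene Pdgfra reached 48.8 and 25.4 CPM against 0.298 in library 1. The 8 stromal markers together summed to 473, 987 and 900 CPM in MuSC injured libraries 1, 2 and 3, against 1531 to 1724 CPM in the uninjured ones, with 3 markers higher (Pdgfra, Pdgfrb and Lum) and 1 lower (Dpt). Markers of muscle fibers fell with injury in every population, 3 of 8 in CD31+ cells, 7 in CD45+ cells, 8 in MSC and 6 in MuSC. In bulk samples, fewer cells of a type and less RNA per cell cannot be told apart.

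Summed over the 42 members, the family took 1196 to 1376 CPM of injured and 1064 to 1157 CPM of uninjured CD31+ libraries. It took 2348 to 2725 CPM of injured and 1483 to 1838 CPM of uninjured CD45+ libraries. In MSC the sum was 980 to 1159 CPM after injury, against 622 to 660 CPM uninjured, and in MuSC 909 to 1014 CPM after injury, against 416 to 446 CPM uninjured. The sums did not overlap between conditions in any population. In CD31+ cells the gap was small, from 1157 CPM in the highest uninjured to 1196 CPM in the lowest injured library. RLE scaling, an alternative to TMM, moved the median change of all genes in CD31+ cells from -0.04 to -0.145 on the log2 scale. The sums were not computed under it. Of the CD31+ sum, Tnfrsf12a held 11.6% injured and 1.03% uninjured. A single receptor, Tnfrsf12a, held 61.4% of the family's CPM in injured MuSC, against 11.7% in uninjured MuSC. In injured CD45+ cells, Tnf held 27.2% of the sum, against 2.13% in uninjured CD45+ cells.

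**Figure D1:**
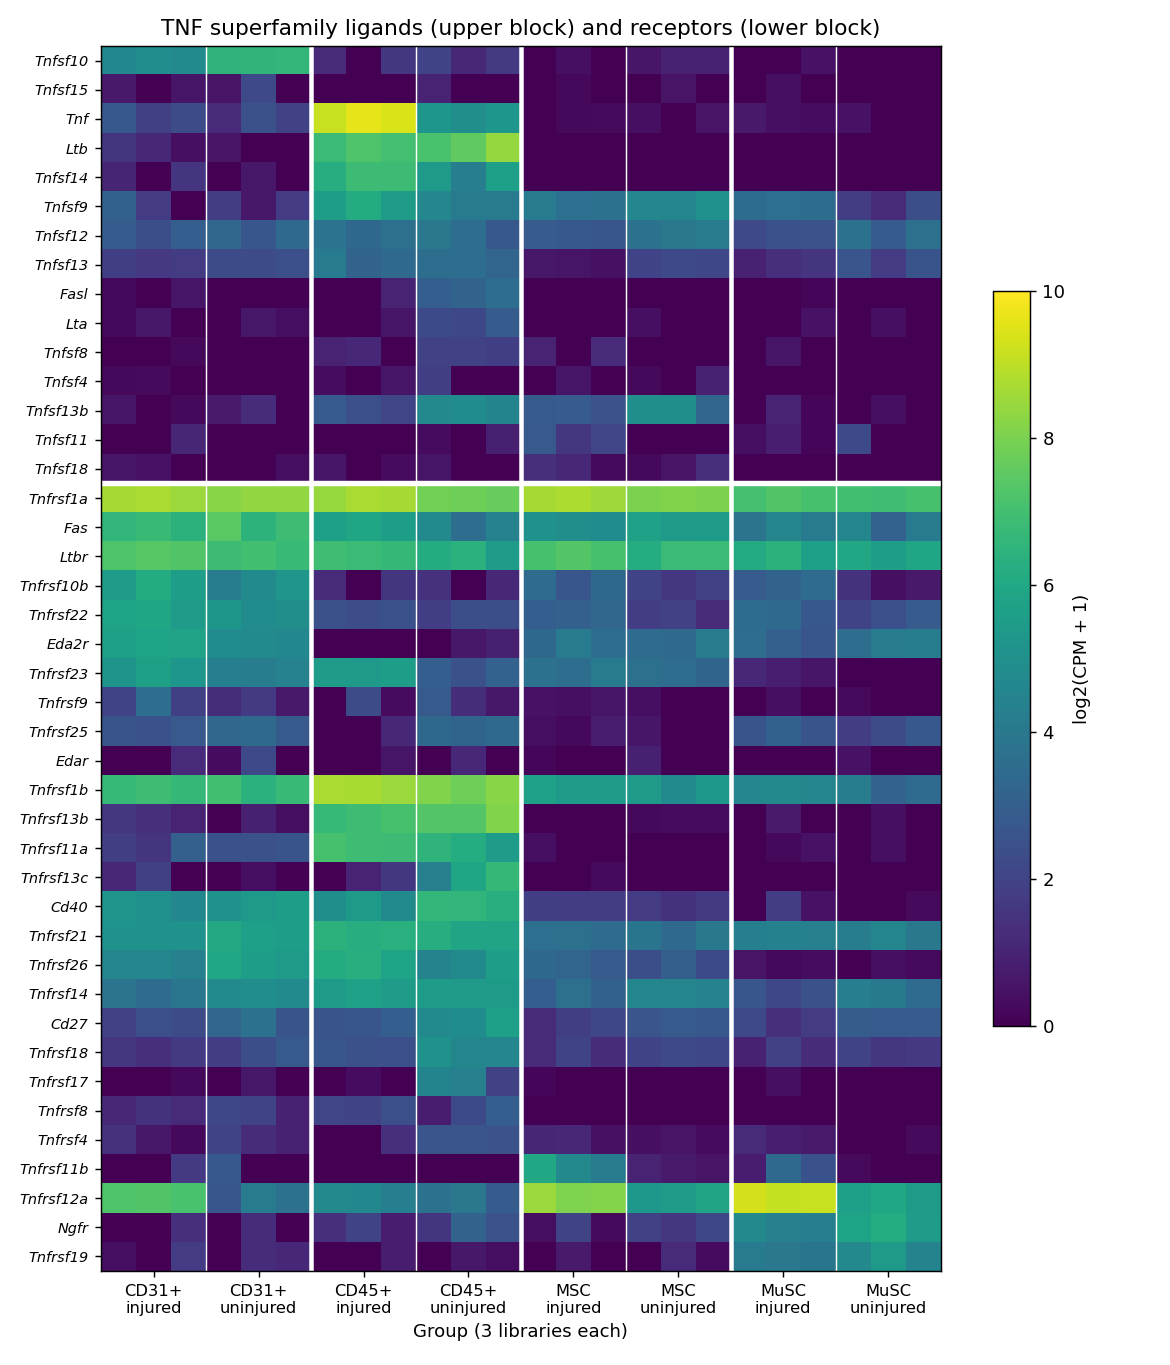
Heat map of log2(CPM + 1) for the 42 members in all 24 libraries, 15 ligands above and 27 receptors below, with injured libraries left of uninjured ones in each population. Tnf is brightest in injured CD45+ libraries (575.6 to 785.5 CPM), Tnfrsf12a in injured MuSC libraries (551.4 to 654.3 CPM), and Tnfrsf1a and Ltbr are present in all 24.

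Among uninjured cells, most of the family was placed in CD45+ or CD31+ cells. Of 38 members, 16 were highest in CD45+ cells, meaning that each of the 3 comparisons with another population passed (13.7% of all genes tested met the same rule there), and 8 were highest in CD31+ cells (9.92% of all genes). MuSC had 2 such members (7.88% of all genes). In all, 26 members were highest in 1 uninjured population, against 40.6% of all genes. The 16 in CD45+ cells include Fasl, Lta, Tnfrsf17 and Tnfrsf13c. Uninjured CD45+ libraries held 96 of 105, 51 of 66, 171 of 178 and 631 of 668 counts of these members. Their places are thus not independent of how members were kept, and the counts of 16 and 26 include them. MSC had 0 (9.09% of all genes) by edgeR's quasi-likelihood test, 0 at an unadjusted p below 0.05 and 0 by DESeq2. Among the ligands, Tnf, Lta, Ltb, Fasl, Tnfsf8, Tnfsf13 and Tnfsf14 were highest in CD45+ cells, and Tnfsf10 (TRAIL, which can kill cells through death receptors) was highest in CD31+ cells. The CD31+ receptors were Tnfrsf1a, Fas, Tnfrsf10b, Tnfrsf22, Tnfrsf23, Tnfrsf26 and Eda2r, a set that holds 3 death domain receptors. The 2 MuSC receptors were Ngfr, the low-affinity neurotrophin receptor, and Tnfrsf19.

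Among injured cells, 13 members were highest in CD45+ cells (15.4% of all genes), 5 in CD31+ cells (10.8%), 3 in MuSC (8.63%) and 0 in MSC (5.75%), in all 21 members, against 40.6% of all genes. For MSC, 2 members, Tnfrsf11b and Tnfsf11, met the rule at an unadjusted p below 0.05, and DESeq2 also gave 0. The MSC count was 1 without CD31+ injured library 1 or 3 and without MuSC injured library 2. Tnfrsf12a joined Ngfr and Tnfrsf19 as highest in MuSC. Tnfsf9, Tnfsf12, Tnfrsf21 and Tnfrsf26 met the rule in injured and not in uninjured CD45+ cells.

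Per kilobase of exon, which allows genes to be compared, Tnfrsf1a was the most abundant member in uninjured CD31+ cells, MSC and MuSC, at 125, 103 and 49.0 CPM per kb. In uninjured CD45+ cells, Ltb led with 147 CPM per kb. After injury the leading member was Tnfrsf1a in CD31+ cells (154 CPM per kb), Tnf in CD45+ cells (418), Tnfrsf12a in MSC (157) and Tnfrsf12a in MuSC (307). Tnfrsf1a followed closely in injured MSC, at 156 CPM per kb, and stood at 54.3 in injured MuSC.

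After injury, 5 members rose and 5 fell in CD31+ cells, where 14.1% of all 16263 genes tested rose and 9.30% fell (edgeR's quasi-likelihood test, adjusted p below 0.05). The CD45+ population had 10 rises and 12 falls, against 16.0% and 18.5% of all genes. These falls include Tnfrsf17, Fasl, Lta and Tnfrsf13c, whose counts lay mostly in uninjured CD45+ libraries, so that their falls are not independent of how members were kept. For MSC there were 8 rises and 5 falls (18.3% and 23.6% of all genes), and for MuSC 9 rises and 5 falls (21.4% and 17.5%). The share of members that changed in either direction was 57.9% in CD45+ cells, against 34.5% of all genes. It was 26.3% in CD31+ cells against 23.4%, 34.2% in MSC against 41.9%, and 36.8% in MuSC against 38.8%, each near the share of all genes. Leaving out CD31+ injured library 1 gave 3 rises and 4 falls in CD31+ cells, and leaving out CD45+ injured library 3 gave 9 rises and 10 falls in CD45+ cells. The CD31+ count of rises was also 3 without injured library 2. Under RLE scaling, which moved the median change of all genes in CD31+ cells to -0.145 on the log2 scale, 48.3% of the CD31+ calls over all genes were rises, against 60.3% under TMM scaling, and 3 members rose. Without MSC injured library 2, 8 members fell in MSC. In MuSC, the counts were 5 rises and 3 falls without injured library 2, and 3 and 3 without injured libraries 2 and 3, which leaves 1 injured MuSC library that is assumed to vary like the other groups. The MuSC count of rises was 4 without uninjured library 1 or 2.

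On the log2 scale, the median change of the tested members was 0.11 in CD31+ cells, -0.09 in CD45+ cells, 0.00 in MSC and 0.60 in MuSC, against -0.04, -0.12, -0.23 and -0.04 over all genes. Of the 38 members, 8, 6, 15 and 19 had 3 or fewer counts in 1 or both conditions in these populations, so that their fitted changes have no firm size. With those members set at the bound or ratio that their counts allow, the medians were 0.00, -0.02, 0.00 and 0.04. Libraries of both conditions did not overlap for 17 members in CD31+ cells (37.3% of all genes), 23 in CD45+ cells (43.0%), 19 in MSC (55.0%) and 14 in MuSC (49.5%).

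**Figure D2:**
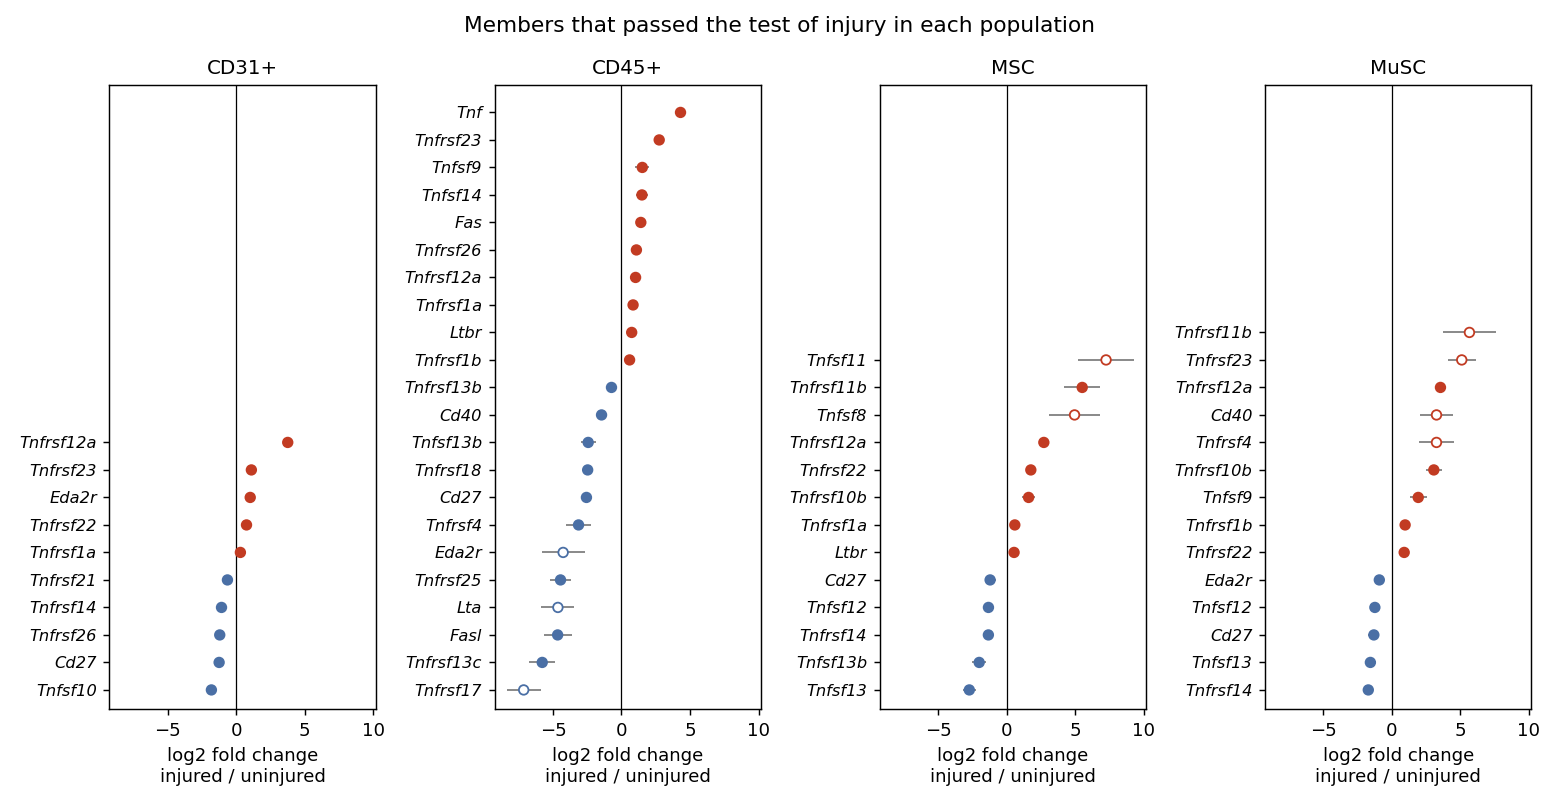
Log2 fold change (injured over uninjured, x axis) of each member that passed the test in each population, with its approximate standard error as a bar. Open points are members with 3 or fewer counts in 1 condition, whose size is not firm; among the filled points, Tnfrsf12a is farthest right in CD31+ cells (3.76) and MuSC (3.54), Tnfrsf11b in MSC (5.51) and Tnf in CD45+ cells (4.31).

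Tnf, the founding ligand and a strong activator of NF-kB, was highest in CD45+ cells in both conditions. Its 3 injured CD45+ libraries held 575.6, 785.5 and 696.0 CPM, against 37.3, 29.5 and 36.9 CPM in the uninjured ones. Every injured library stood above every uninjured one, and the log2 fold change was 4.31 ± 0.24 (SE, n = 3; edgeR adjusted p = 1.0e-11). CD31+ libraries held 2.72 to 5.69 CPM injured and 1.27 to 4.52 CPM uninjured, which did not pass (adjusted p = 0.31). MSC and MuSC libraries held at most 0.595 CPM, at most 4 counts over 3 MSC libraries and 8 counts over 3 MuSC libraries. The response differed between populations (F test on 3 degrees of freedom, adjusted p = 5.45e-06); the MSC and MuSC changes in that test rest on 3 or fewer counts in a condition. In these CD45+ libraries the 7 neutrophil markers summed to 7021 to 10710 CPM injured and 1134 to 3616 CPM uninjured, and their part in the Tnf result was not tested.

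The receptors of TNF were present in every library. Tnfrsf1a (TNFR1, with a death domain) rose in CD45+ cells, where injured libraries held 347, 425 and 405 CPM, against 231, 218 and 206 CPM uninjured. It also rose in MSC, to 399, 437 and 373 CPM, against 263, 277 and 261 CPM uninjured. The log2 changes were 0.85 ± 0.10 in CD45+ cells and 0.59 ± 0.10 in MSC (adjusted p = 7.24e-07 and 3.63e-05). In both populations the injured libraries were all above the uninjured ones. CD31+ injured libraries held 406, 426 and 363 CPM, against 301, 333 and 336 CPM, and the change of 0.30 ± 0.10 passed (adjusted p = 0.03). That CD31+ call did not pass under RLE scaling (adjusted p = 0.162), with DESeq2 (0.133) or without uninjured library 1, injured library 1 or injured library 2 (0.0833 to 0.121). MuSC held 130.5, 155 and 137 CPM injured and 123, 123 and 135 CPM uninjured. The Tnfrsf1a response of MuSC was below the mean of the others by 0.43 ± 0.12 (adjusted p = 0.013).

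Tnfrsf1b (TNFR2, which recruits TRAF2 and lacks a death domain) was highest in CD45+ cells in both conditions. Injured CD45+ libraries held 426.5, 409 and 358.5 CPM, against 272, 223 and 297 CPM uninjured, a log2 change of 0.59 ± 0.18 (adjusted p = 0.015) that did not pass without uninjured library 2 (0.085). In MuSC it reached 23.5, 25.1 and 22.7 CPM, against 17.2, 7.80 and 10.4 CPM uninjured, again without overlap. That log2 change was 0.97 ± 0.22 (adjusted p = 0.0012; 0.0598 without injured libraries 2 and 3). MSC libraries held 40.1 to 52.4 CPM injured and 26.4 to 39.9 CPM uninjured (adjusted p = 0.17). CD31+ libraries held 101 to 117 CPM injured and 82.2 to 126 CPM uninjured (adjusted p = 0.97).

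**Figure D3:**
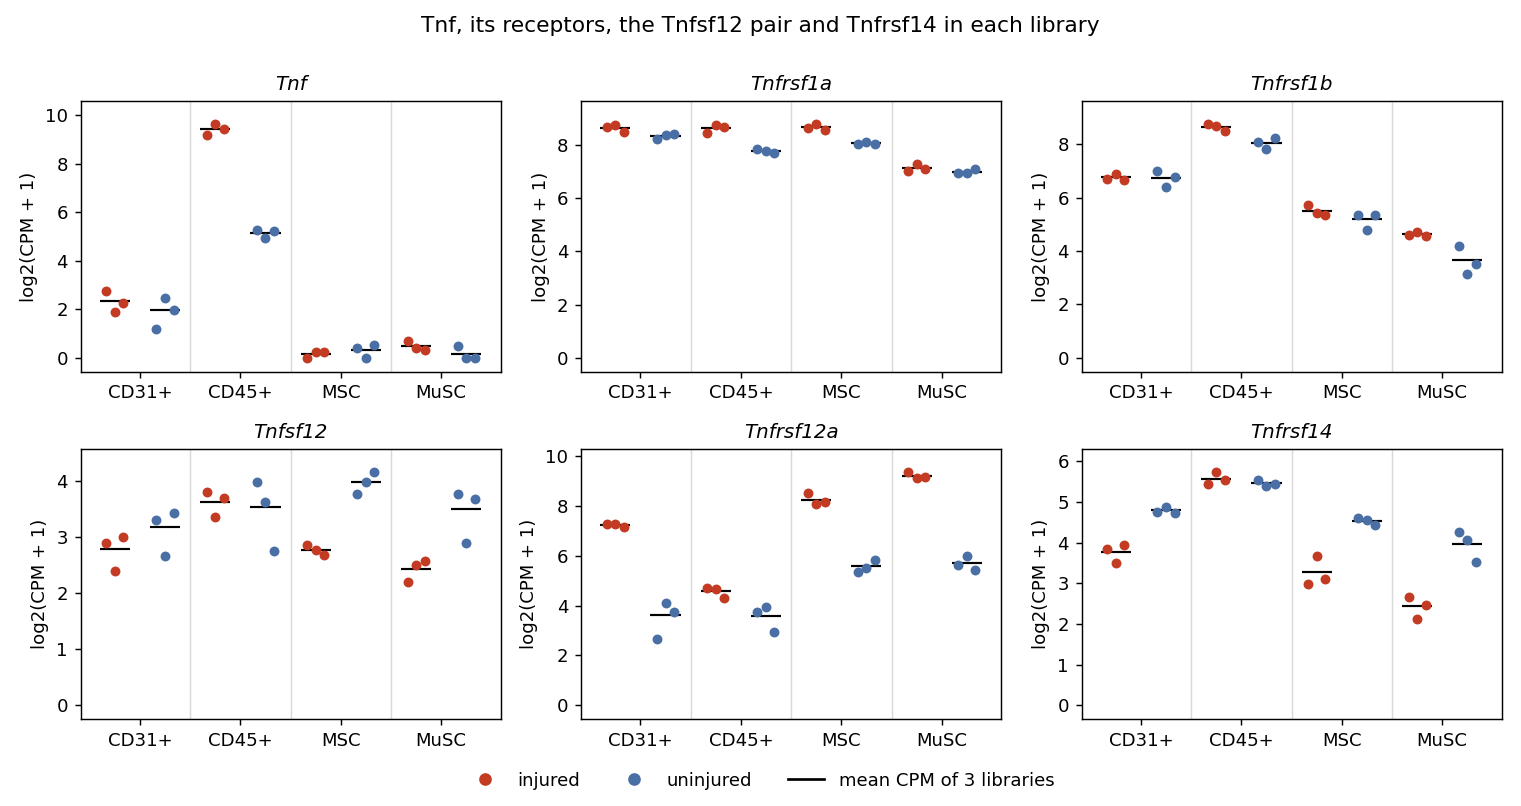
Log2(CPM + 1) of Tnf, Tnfrsf1a, Tnfrsf1b, Tnfsf12, Tnfrsf12a and Tnfrsf14 in each library (points; injured red and left, uninjured blue), with the mean CPM of 3 libraries as a line. Tnf stands far above its uninjured level in CD45+ cells (575.6 to 785.5 CPM injured, 29.5 to 37.3 uninjured), while Tnfrsf12a is above its uninjured level in all 4 populations.

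Tnfrsf12a (Fn14), a small receptor that binds TWEAK and signals through TRAF adaptors, rose in all 4 populations. Injured MuSC libraries held 654, 551 and 572 CPM, against 48.6, 62.4 and 42.4 CPM in uninjured MuSC. Injured MSC libraries held 363.5, 265 and 282 CPM, against 39.2, 44.1 and 56.0 CPM in uninjured MSC. In both, the lowest injured library stood several times above the highest uninjured one. CD31+ cells reached 152, 155 and 139 CPM, against 5.31, 16.1 and 12.4 CPM uninjured, and CD45+ cells 25.3, 24.5 and 18.7 CPM, against 12.3, 14.5 and 6.58 CPM. No population showed overlap between its conditions. The log2 fold changes were 3.76 ± 0.28 in CD31+ cells, 1.03 ± 0.29 in CD45+ cells, 2.71 ± 0.24 in MSC and 3.54 ± 0.25 in MuSC, with adjusted p of 1.93e-09, 0.0083, 1.25e-08 and 3.59e-10.

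The size of the Tnfrsf12a response differed between populations (F test on 3 degrees of freedom, adjusted p = 4.54e-05). It was above the mean of the other 3 in CD31+ cells by 1.33 ± 0.31 and in MuSC by 1.05 ± 0.28, and below it in CD45+ cells by 2.31 ± 0.33 on the log2 scale (adjusted p = 0.0076, 0.015 and 1.73e-05). Among injured cells the Tnfrsf12a levels ran in the order MuSC, MSC, CD31+ and CD45+, and each neighbouring pair passed. MuSC exceeded MSC by 0.96 ± 0.23 (adjusted p = 0.002), MSC exceeded CD31+ by 1.03 ± 0.23 (adjusted p = 6.88e-04), and CD31+ exceeded CD45+ by 2.70 ± 0.26 (adjusted p = 7.53e-09). Among uninjured cells, MuSC and MSC did not differ beyond their spread (adjusted p = 0.71), nor did CD31+ and CD45+ cells (adjusted p = 0.97).

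Tnfsf12 (TWEAK), the ligand of Tnfrsf12a, fell in MSC and MuSC. Injured MSC held 6.29, 5.80 and 5.39 CPM, against 12.6, 14.8 and 16.9 CPM uninjured, and injured MuSC 3.57, 4.66 and 4.93 CPM, against 12.6, 6.44 and 11.8 CPM. The log2 changes were -1.33 ± 0.34 in MSC and -1.24 ± 0.35 in MuSC (adjusted p = 0.0027 and 0.0062), with no overlap in either. In the same libraries the 8 muscle fiber markers summed to 3.64 to 15.9 CPM in injured and 153 to 431 CPM in uninjured MSC. In MuSC they summed to 205 to 265 CPM injured and 521 to 560 CPM uninjured. Of these markers, 7 also fell in CD45+ cells and 3 in CD31+ cells, where Tnfsf12 did not pass. Their part was not tested. CD45+ libraries held 9.31 to 12.9 CPM injured and 5.72 to 14.7 CPM uninjured, and CD31+ libraries 4.27 to 6.98 and 5.37 to 9.73 CPM (adjusted p = 0.87 and 0.41). Tnfsf13 (APRIL), the next gene on chromosome 11, fell in the same populations. It held 0.559, 0.497 and 0.360 CPM in injured MSC, against 3.02, 3.58 and 3.33 CPM in uninjured MSC. In MuSC, Tnfsf13 held 0.893, 1.61 and 1.82 CPM injured and 5.23, 2.37 and 5.11 CPM uninjured, with log2 changes of -2.73 ± 0.48 in MSC and -1.57 ± 0.41 in MuSC (adjusted p = 6.30e-05 and 0.0035). Without the filter on low counts, Tnfsf13 did not pass in MuSC (edgeR adjusted p = 0.0611). In CD45+ cells it did not pass, at 16.4, 8.09 and 9.81 CPM injured and 11.2, 11.3 and 8.59 CPM uninjured. Values of both ligands are uncertain, since the read-through gene Tnfsfm13 shares 48.3% of the exon bases of Tnfsf12 and 60.0% of those of Tnfsf13. Counts assigned to Tnfsfm13 itself averaged at most 3.31 CPM in any group, and they fell in MuSC by 1.54 on the log2 scale (adjusted p = 0.04).

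Tnfsf10 (TRAIL) was the only ligand that changed in CD31+ cells. Injured CD31+ libraries held 24.1, 28.5 and 26.0 CPM, against 88.6, 91.5 and 97.0 CPM uninjured, a log2 change of -1.82 ± 0.36 (adjusted p = 6.58e-04). Even after this fall, injured CD31+ cells held more Tnfsf10 than the other injured populations, whose libraries had at most 2.10 CPM. Its signalling receptor Tnfrsf10b (DR5, with a death domain) rose in MuSC, where injured libraries held 6.40, 8.03 and 10.3 CPM, against 1.74, 0.339 and 0.589 CPM uninjured. In MSC, Tnfrsf10b reached 10.2, 5.47 and 9.17 CPM, against 3.18, 2.02 and 2.89 CPM uninjured. Neither population showed overlap, and the log2 changes were 3.06 ± 0.59 in MuSC and 1.60 ± 0.49 in MSC (adjusted p = 1.94e-04 and 0.011). In CD31+ cells, Tnfrsf10b held 43.8, 69.5 and 48.3 CPM injured and 17.4, 26.8 and 36.6 CPM uninjured. This difference did not overlap either, yet did not pass over all 24 libraries; it passed when CD31+ libraries were fitted alone (adjusted p = 0.0081). Of the 25-base stretches of Tnfrsf10b, 15.4% occur in other genes.

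The mouse genome carries a cluster of TRAIL receptor relatives on chromosome 7, of which Tnfrsf22 and Tnfrsf23 are decoys. Both rose in CD31+ cells. Tnfrsf23 reached 35.5, 51.0 and 37.1 CPM there, against 19.1, 17.8 and 20.6 CPM uninjured, and Tnfrsf22 reached 55.4, 60.2 and 45.7 CPM, against 38.1, 27.7 and 30.1 CPM. The log2 changes were 1.10 ± 0.23 and 0.75 ± 0.26 (adjusted p = 0.0012 and 0.038). The largest well-counted rise of Tnfrsf23 was in CD45+ cells, with 43.5, 40.7 and 46.2 CPM injured and 6.88, 4.63 and 7.73 CPM uninjured (2.75 ± 0.26, adjusted p = 5.19e-08). In MuSC, Tnfrsf23 had 17 counts over the injured libraries and 0 over the uninjured ones, at least 3.62-fold higher when 3 counts over the group are taken as the limit of the zero. MSC held 11.3 to 15.8 CPM of Tnfrsf23 injured and 8.44 to 12.1 CPM uninjured. Tnfrsf22 rose in MSC, with 6.85, 7.46 and 8.99 CPM against 2.51, 2.91 and 1.33 CPM (1.76 ± 0.34, adjusted p = 1.59e-04).

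The calls of Tnfrsf22 in CD31+ cells and MuSC were less firm. In CD31+ cells it did not pass under RLE scaling (adjusted p = 0.08), with DESeq2 (0.052), or without injured library 1 or 2 or uninjured library 2 or 3 (0.106 to 0.14). In MuSC it held 10.7, 9.63 and 5.58 CPM injured and 3.098, 4.41 and 6.28 CPM uninjured, with overlap, and did not pass without injured library 1 or 2 or uninjured library 1 or 2 (0.0571 to 0.143). Of the 25-base stretches (the read length) of Tnfrsf22, 29.2% occur in Tnfrsf23, and 30.5% of those of Tnfrsf23 occur in Tnfrsf22. The split of counts between them is therefore uncertain. With any other gene counted, the shares are 44.5% for Tnfrsf22 and 32.8% for Tnfrsf23, so Tnfrsf22 counts are uncertain beyond that split. Tnfrsf26, the other gene of the cluster, moved in opposite directions. Injured CD31+ libraries held 22.3, 23.5 and 19.4 CPM of it, against 62.1, 46.0 and 41.9 CPM uninjured, while injured CD45+ libraries held 70.5, 76.5 and 54.7 CPM, against 21.1, 26.9 and 46.9 CPM. The log2 changes of Tnfrsf26 were -1.21 ± 0.27 and 1.09 ± 0.27 (adjusted p = 0.0017 and 0.0029), and the response differed between populations (adjusted p = 2.64e-04).

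Tnfsf11 (RANKL, the ligand that drives osteoclast formation) and its soluble decoy Tnfrsf11b (osteoprotegerin) both rose in MSC. Tnfsf11 had 73 counts over the injured MSC libraries, at 6.01, 1.99 and 3.24 CPM, and 0 counts in uninjured MSC, at least 19.4-fold higher (adjusted p = 0.0083). These 73 are most of its 111 counts over all libraries, so this rise is not independent of how genes were kept for testing. Tnfrsf11b reached 61.2, 24.9 and 16.5 CPM in injured MSC, against 1.01, 0.672 and 0.444 CPM uninjured. The lowest injured library stood above every uninjured one, and the log2 change was 5.51 ± 1.30 (adjusted p = 0.003). In MuSC, Tnfrsf11b had 0.744, 9.63 and 4.80 CPM injured and 0.194, 0 and 0 CPM uninjured, or 102 counts against 1, a ratio of 65.2 with a 95% exact counting interval of 11.4 to 2600. The MuSC libraries with more Tnfrsf11b, injured libraries 2 and 3, were those with 48.8 and 25.4 CPM of the stromal gene Pdgfra, and their stromal sums (987 and 900 CPM) lay above that of injured library 1 (473 CPM) and below those of all uninjured MuSC libraries. The part of stromal RNA was not tested. Without those libraries the MuSC change of Tnfrsf11b was 2.81 and did not pass (adjusted p = 0.562); it also did not pass without any single MuSC library other than injured library 1 (0.0542 to 0.11). The receptor Tnfrsf11a (RANK) was found in CD45+ cells, at 135, 119 and 114 CPM injured and 89.9, 72.3 and 43.5 CPM uninjured. Its libraries did not overlap, but it passed only under some alternatives, among them CD45+ libraries fitted alone (adjusted p = 0.0188). Other populations held at most 7.30 CPM of Tnfrsf11a in a library.

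**Figure D4:**
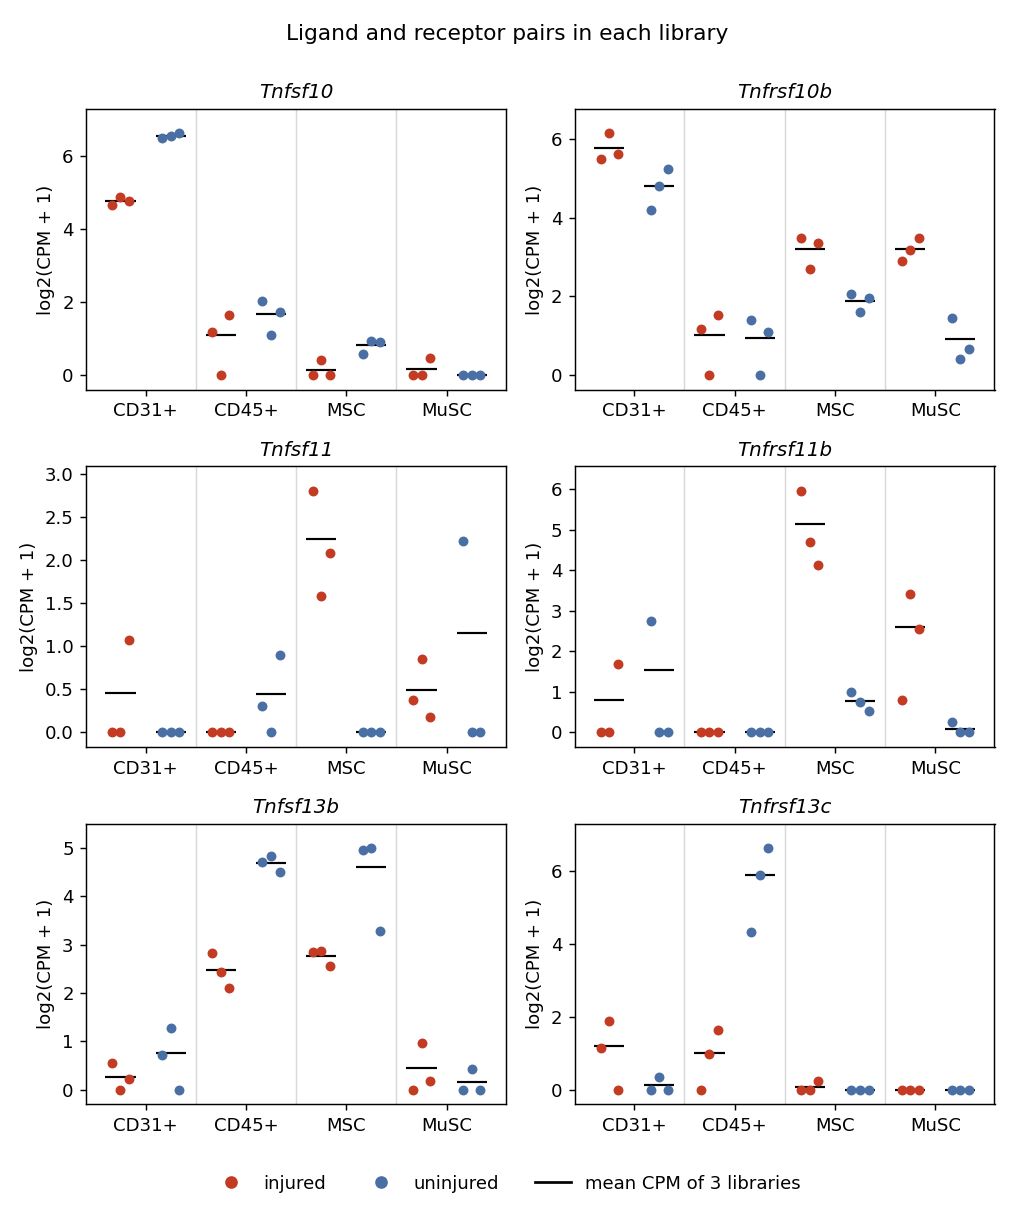
Log2(CPM + 1) of Tnfsf10 and Tnfrsf10b, Tnfsf11 and Tnfrsf11b, and Tnfsf13b and Tnfrsf13c, ligands left and receptors right, in each library (points; injured red, uninjured blue), with the mean CPM as a line. Tnfsf11 and Tnfrsf11b rise in MSC (Tnfrsf11b 16.5 to 61.2 CPM injured, 0.444 to 1.01 uninjured), and Tnfrsf13c is near 0 in injured CD45+ cells (0 to 2.10 CPM against 19.2 to 99.3).

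Of the 5 members that serve B cell survival, 4 fell in CD45+ cells (18.5% of all genes fell there) and 0 rose by edgeR, also 0 at an unadjusted p below 0.05. Tnfrsf13c (the BAFF receptor) held 0, 0.980 and 2.10 CPM in injured and 19.2, 58.7 and 99.3 CPM in uninjured libraries, a log2 change of -5.78 ± 0.93 (adjusted p = 1.91e-04). Tnfrsf17 (BCMA, a plasma cell receptor) held 0, 0.245 and 0 CPM injured and 22.1, 19.7 and 2.86 CPM uninjured. That is 1 count against 171, a ratio of 0.0053 (95% exact counting interval 1.33e-04 to 0.0299; adjusted p = 1.49e-04). Tnfrsf13b (TACI) stayed abundant, at 104, 118 and 135 CPM injured and 159, 159 and 274 CPM uninjured. Its log2 change of -0.73 ± 0.28 passed (adjusted p = 0.045), but not without uninjured library 3 or any 1 of the injured libraries (0.0722 to 0.378). The 7 B cell markers in the same libraries summed to 12.9 to 55.8 CPM injured and 756 to 3218 CPM uninjured. Their part in these falls was not tested.

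The ligand of these receptors, Tnfsf13b (BAFF), fell in CD45+ cells and in MSC. Injured CD45+ libraries held 6.06, 4.41 and 3.27 CPM, against 24.9, 27.5 and 21.8 CPM uninjured, and injured MSC libraries 6.15, 6.30 and 4.85 CPM, against 30.2, 30.9 and 8.66 CPM. The log2 changes were -2.43 ± 0.56 and -2.01 ± 0.53 (adjusted p = 0.0015 and 0.0036), with no overlap in either population. MuSC and CD31+ libraries held at most 1.41 CPM.

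Among 11 tested members known for lymphocyte costimulation, 5 receptors fell and 2 ligands rose in CD45+ cells, where 18.5% of all genes fell and 16.0% rose. Cd27, a costimulatory receptor of T cells that binds CD70, held 5.05, 5.39 and 7.01 CPM in injured and 26.6, 28.3 and 48.4 CPM in uninjured CD45+ cells. Tnfrsf18 (GITR) held 5.31, 4.66 and 4.44 CPM injured, against 33.2, 22.9 and 23.8 CPM, and Tnfrsf25 (DR3) held 0, 0 and 1.17 CPM, against 9.49, 8.39 and 10.02 CPM. None of the 3 overlapped, and their log2 changes were -2.56 ± 0.38, -2.47 ± 0.40 and -4.45 ± 0.74 (adjusted p = 1.35e-05, 4.28e-05 and 5.15e-05). Cd40, which B cells and antigen-presenting cells carry, held 30.3, 42.6 and 26.2 CPM injured, against 98.3, 94.0 and 79.3 CPM (-1.45 ± 0.33, adjusted p = 0.0014). Tnfrsf4 (OX40) held 0, 0 and 1.63 CPM injured, against 5.22, 5.21 and 4.87 CPM, and did not pass without injured library 1 or 2 (adjusted p = 0.0544 and 0.0565). The 8 T cell markers in these libraries summed to 6.86 to 21.9 CPM injured and 128 to 368 CPM uninjured, and the 6 NK cell markers to 13.6 to 23.5 CPM injured and 176 to 373 CPM uninjured. Their part was not tested.

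Cd27 also fell in the other populations, at levels of 1.26 to 4.46 CPM injured and 5.01 to 12.7 CPM uninjured. The log2 changes were -1.25 ± 0.39 in CD31+ cells, -1.21 ± 0.41 in MSC and -1.32 ± 0.40 in MuSC (adjusted p = 0.021, 0.02 and 0.011). These calls were not firm: without single libraries the adjusted p rose to 0.144 in CD31+ cells (without uninjured library 2; 0.102 without injured library 1 and 0.0502 without injured library 3). In MSC it rose to 0.225 (without injured library 1; 0.0676 to 0.103 without 1 uninjured library), and in MuSC to 0.0671 (without injured library 2; 0.249 without injured libraries 2 and 3). T cell markers summed to at most 6.40 CPM in any library of these 3 populations. Muscle fiber markers fell in the same 3, with sums of 36.8 to 82.5 CPM in injured and 110 to 146.5 CPM in uninjured CD31+ cells, 3.64 to 15.9 against 153 to 431 CPM in MSC, and 205 to 265 against 521 to 560 CPM in MuSC, and their part was not tested. Cd27 lies within the span of Vamp1 on the opposite strand, with 0 shared exon bases, and the library preparation does not mark strand. Vamp1 itself fell in CD45+ cells (-1.63), MSC (-2.01) and MuSC (-1.73), with adjusted p of 0.0024, 0.0012 and 0.003, and averaged 8.12 CPM in injured and 11.04 CPM in uninjured CD31+ cells (adjusted p = 0.47). Its part in the Cd27 counts was not tested. Tnfrsf18 shares 27.2% of its exon bases with the antisense gene Gm16008, so reads from these exons cannot be told apart.

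The 2 costimulatory ligands that rose in CD45+ cells were Tnfsf14 (LIGHT) and Tnfsf9 (4-1BB ligand). Tnfsf14 held 74.5, 116 and 114 CPM in injured and 40.3, 18.5 and 49.2 CPM in uninjured CD45+ cells. Tnfsf9 held 46.5, 70.8 and 45.3 CPM injured and 23.97, 16.8 and 15.7 CPM uninjured. Neither ligand overlapped, and the log2 changes were 1.49 ± 0.45 for Tnfsf14 and 1.52 ± 0.50 for Tnfsf9 (adjusted p = 0.019 and 0.022). Tnfsf14 did not pass with DESeq2 (adjusted p = 0.498) or without injured library 2 or 3 or uninjured library 2 (0.0563 to 0.0663), and Tnfsf9 did not pass without injured library 2 or uninjured library 2 or 3 (0.0635 to 0.0834). Tnfsf9 also rose in MuSC, to 10.6, 11.7 and 10.6 CPM, against 2.52, 1.36 and 4.32 CPM uninjured. This change, 1.92 ± 0.61 (adjusted p = 0.015), did not pass without uninjured library 1 or 2 (0.0619 and 0.0603) or without injured libraries 2 and 3 (0.156). In MSC, Tnfsf9 held 16.1, 11.6 and 12.6 CPM injured and 23.5, 23.1 and 31.3 CPM uninjured (adjusted p = 0.14), and the MSC response lay below the mean of the others by 2.37 ± 0.62 (adjusted p = 0.011). The gene Gm11110, on the opposite strand, shares 14.9% of the exon bases of Tnfsf9. Its receptor Tnfrsf9 (4-1BB) passed in no population and reached at most 11.3 CPM in a library.

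The receptors of Tnfsf14 are Tnfrsf14 (HVEM) and Ltbr. Tnfrsf14 fell in CD31+ cells, MSC and MuSC. Of 8 muscle fiber markers, 3, 8 and 6 fell in these populations, and 7 fell in CD45+ cells, where Tnfrsf14 did not pass. The part of muscle fiber RNA was not tested. Tnfrsf14 held 13.2, 10.3 and 14.3 CPM in injured CD31+ cells, against 25.9, 28.5 and 25.6 CPM uninjured. In MSC it held 6.85, 11.8 and 7.55 CPM injured, against 23.1, 22.4 and 20.4 CPM, and in MuSC 5.36, 3.37 and 4.54 CPM, against 18.2, 15.6 and 10.4 CPM. No population of these overlapped, with log2 changes of -1.08 ± 0.23, -1.34 ± 0.23 and -1.72 ± 0.25 (adjusted p = 9.43e-04, 5.45e-05 and 6.20e-06). In CD45+ cells Tnfrsf14 held 42.2, 52.2 and 45.1 CPM injured and 45.6, 41.1 and 42.7 CPM uninjured (adjusted p = 0.74), and the CD45+ response lay above the mean of the others by 1.49 ± 0.25 (adjusted p = 9.77e-05).

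Ltbr, the lymphotoxin beta receptor, rose in CD45+ cells and MSC. CD45+ libraries held 121, 112 and 99.3 CPM injured, against 70.7, 82.1 and 45.2 CPM, and MSC libraries 136, 160 and 134 CPM, against 71.5, 113 and 112 CPM. The log2 changes of Ltbr were 0.74 ± 0.20 and 0.54 ± 0.20 (adjusted p = 0.0062 and 0.031). The MSC call did not pass under RLE scaling (adjusted p = 0.069), with DESeq2 (0.0752) or without injured library 2 (0.105) or uninjured library 1 (0.0606). In CD31+ cells Ltbr held 150, 168 and 154 CPM injured and 116, 126 and 108 CPM uninjured, without overlap; it passed with CD31+ libraries fitted alone (adjusted p = 0.0115) and not over all libraries. MuSC libraries held 48.6 to 86.1 CPM injured and 48.1 to 62.0 CPM uninjured. The ligand Ltb held 112, 151 and 129 CPM in injured and 138, 187 and 342 CPM in uninjured CD45+ cells (adjusted p = 0.089). Its partner Lta fell in CD45+ cells, with 2 counts against 51, a ratio of 0.0355 (95% exact counting interval 0.00419 to 0.135; adjusted p = 0.0045).

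Fas, a death domain receptor, rose only in CD45+ cells among the 4 tests. Injured CD45+ libraries held 50.8, 58.8 and 47.9 CPM, against 26.8, 11.3 and 20.6 CPM uninjured (1.41 ± 0.31, adjusted p = 0.001). The CD45+ response lay above the mean of the other 3 by 1.70 ± 0.35 (adjusted p = 7.76e-04). CD31+ libraries held 85.9 to 104 CPM injured and 86.2 to 175 CPM uninjured, and MSC libraries 28.4 to 34.5 CPM injured and 41.4 to 52.1 CPM uninjured (adjusted p = 0.31 and 0.13). MuSC libraries held 13.2 to 22.6 CPM injured and 7.80 to 23.2 CPM uninjured. Fasl, the ligand that cytotoxic lymphocytes use, fell in CD45+ cells, at 0, 0 and 0.934 CPM injured and 6.88, 8.10 and 11.2 CPM uninjured (-4.66 ± 1.03, adjusted p = 0.0023; 0.331 with DESeq2). Fasl had at most 4 counts over the libraries of any group of another population.

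Tnfrsf21 (DR6, another death domain receptor) fell in CD31+ cells, where injured libraries held 34.5, 33.0 and 34.6 CPM, against 64.6, 48.6 and 46.0 CPM. The log2 change was -0.64 ± 0.18 (adjusted p = 0.01), and it did not pass without uninjured library 1 (0.107) or without the filter on low counts (0.166). CD45+ libraries held 73.5 to 84.6 CPM injured and 55.5 to 74.8 CPM uninjured (adjusted p = 0.14), and the CD45+ response lay above the mean of the others by 0.60 ± 0.21 (adjusted p = 0.037). Of 6 tested death domain receptors, 1 rose and 1 fell in CD31+ cells, the CD45+ population had 2 rises and 1 fall, 2 rose in MSC and 1 rose in MuSC. Over all genes, 14.1%, 16.0%, 18.3% and 21.4% rose in these populations and 9.30%, 18.5%, 23.6% and 17.5% fell.

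Eda2r, a receptor for an ectodysplasin isoform, changed in opposite directions. Injured CD31+ libraries held 51.1, 54.1 and 52.5 CPM, against 27.6, 26.0 and 24.2 CPM uninjured (1.02 ± 0.29, adjusted p = 0.014). Injured MuSC libraries held 10.9, 7.39 and 5.45 CPM, against 11.04, 16.6 and 17.3 CPM (-0.92 ± 0.32, adjusted p = 0.025). The response differed between populations (F test on 3 degrees of freedom, adjusted p = 0.0024), a test that includes the CD45+ change described next. The MuSC call of Eda2r did not pass without injured library 2 or 3 or uninjured library 2 or 3 (adjusted p = 0.0733 to 0.133). In CD45+ cells Eda2r had 0 counts injured and 5 uninjured, at least 1.84-fold lower, and that call was lost without any single CD45+ library other than uninjured library 1 (adjusted p = 0.0889 to 0.162).

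The 2 receptors highest in MuSC were both lower in each injured MuSC library than in each uninjured one, and neither passed. Ngfr held 25.3, 19.6 and 18.8 CPM injured and 55.4, 72.2 and 44.6 CPM uninjured (-1.43 ± 0.61, adjusted p = 0.068). Tnfrsf19 held 16.96, 14.5 and 13.9 CPM injured and 25.2, 41.0 and 21.4 CPM uninjured (-0.94 ± 0.67, adjusted p = 0.29). With MuSC libraries fitted alone both passed, at adjusted p = 1.12e-04 for Ngfr and 0.0094 for Tnfrsf19. Other populations held at most 8.10 CPM of Ngfr and 2.38 CPM of Tnfrsf19 in a library. The 6 Schwann cell markers summed to at most 8.47 CPM in MuSC libraries. The 7 pericyte or smooth muscle markers summed to 2193 to 3273 CPM in injured and 2495 to 3345 CPM in uninjured MuSC. In libraries of the other populations they summed to at most 848.7 CPM. Their part in the Ngfr and Tnfrsf19 levels was not tested.

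Cd40 and Tnfrsf4 each had 19 counts in injured and 1 count in uninjured MuSC, a ratio of 12.2 with a 95% exact counting interval of 1.93 to 505. The Cd40 counts lay in injured libraries 2 and 3 (2.57 and 0.389 CPM, against 0 in library 1). Injured MSC libraries themselves held 2.49 to 2.66 CPM of Cd40, and the part of stromal RNA in the MuSC counts was not tested. Without MuSC injured libraries 2 and 3, 0 counts stood against 1 count, which gives no firm size or direction. Cd40 also did not pass without injured library 2 or uninjured library 1 or 2 (adjusted p = 0.508, 0.132 and 0.0793). Tnfrsf4 lay at 0.649 to 1.34 CPM in the 3 injured MuSC libraries and did not pass without any 1 of the 6 MuSC libraries (0.0517 to 0.167). It was also lost under RLE scaling, without the filter on low counts, with a stricter filter and with the replicate number as a block. Tnfsf8 (CD30 ligand) had 14 counts in injured and 0 in uninjured MSC, at least 3.72-fold higher. It did not pass without any single MSC library other than injured library 2 (0.0854 to 0.114). Tnfsf8 was also lost with DESeq2 and with the replicate number as a block. Its receptor Tnfrsf8 passed in no population and stood at 0 in every MSC and MuSC library. The ligands Tnfsf4, Tnfsf15 and Tnfsf18 and the receptor Edar, which were not tested, reached at most 3.67 CPM in a library.

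The response to injury differed between populations for 21 of 38 members (35.9% of all genes), 5 ligands and 16 receptors. Against the mean of the other 3, the CD45+ response was higher for 7 members (9.59% of all genes) and lower for 8 (16.1%). MuSC had 5 higher (9.32%) and 2 lower (4.17%), CD31+ cells 2 higher (5.64%) and 3 lower (3.64%), and MSC 1 higher (6.39%) and 3 lower (8.29%). The members above the mean in CD45+ cells were Tnf, Tnfsf12, Tnfsf13, Fas, Tnfrsf1a, Tnfrsf14 and Tnfrsf21. Those above it in MuSC were Tnfrsf12a, Tnfrsf10b, Tnfrsf23, Cd40 and Tnfrsf4. The sizes of these differences have no firm value for Tnf, Tnfrsf23, Tnfrsf26, Eda2r, Tnfrsf25, Cd40, Tnfrsf4, Tnfrsf17 and Tnfsf8, since at least 1 population had 3 or fewer counts in a condition.

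Downstream of the receptors, the cell death branch holds Casp8, the initiator caspase, its regulator Cflar, and Ripk3 and Mlkl, which carry out necroptosis. Of 9 genes, 4 rose in CD31+ cells, 4 in CD45+ cells, 4 in MSC and 5 in MuSC, and 1, 0, 2 and 1 fell. Over all genes, 14.1%, 16.0%, 18.3% and 21.4% rose and 9.30%, 18.5%, 23.6% and 17.5% fell in these populations, and the list was not tested against them. Ripk3 rose in every population, to a mean of 118 ± 20.4 CPM in injured CD31+ cells (SD, n = 3), against 28.4 ± 2.61 CPM uninjured. Ripk3 averaged 132 ± 18.4 CPM in injured CD45+ cells, against 48.1 ± 4.64 CPM, and 61.9 ± 13.1 CPM in injured MSC, against 12.02 ± 3.77 CPM. In MuSC, Ripk3 averaged 10.2 ± 4.24 CPM injured, against 1.17 ± 1.09 CPM uninjured. Mlkl, the effector that Ripk3 activates, rose in MuSC to 20.4 ± 4.64 CPM, against 2.09 ± 2.28 CPM uninjured, and in CD45+ cells and MSC by 1.51 and 1.40 on the log2 scale. Casp8 rose in all 4, most in MuSC with 46.2 ± 4.76 CPM injured, against 9.14 ± 2.17 CPM uninjured (2.30 ± 0.18, adjusted p = 3.48e-10). Its CD31+ rise of 0.41 ± 0.15 lay close to the threshold (edgeR adjusted p = 0.046). Birc2, an inhibitor of apoptosis and ubiquitin ligase, fell in CD31+ cells, MSC and MuSC by 1.16, 0.97 and 0.77.

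Of 11 receptor adaptors, 1 rose in CD31+ cells, CD45+ cells had 2 rises and 2 falls, MSC 5 rises and 2 falls, and MuSC 5 rises. Of all genes, 14.1%, 16.0%, 18.3% and 21.4% rose in these populations, and 18.5% and 23.6% fell in CD45+ cells and MSC. Traf1, which binds TNFR2 and is itself a target of NF-kB, had 0 counts in uninjured MuSC and 20.6 to 31.2 CPM in injured MuSC (adjusted p = 3.07e-08). In CD31+ cells Traf1 averaged 50.6 ± 13.7 CPM injured and 16.1 ± 7.63 CPM uninjured. Traf2, which binds Tnfrsf1b, Tnfrsf12a and others, rose in MSC by 1.24 ± 0.16 (adjusted p = 1.30e-06), and Traf5 fell in CD45+ cells by 1.66 ± 0.21 (adjusted p = 1.41e-06). Of 11 kinases and ubiquitin ligases on the way to NF-kB, 0 rose in any population by edgeR, also 0 at an unadjusted p below 0.05, and 3, 1, 3 and 4 fell in CD31+ cells, CD45+ cells, MSC and MuSC. Of all genes, 9.30%, 18.5%, 23.6% and 17.5% fell there. Ikbkb, a kinase subunit of the IkB kinase complex, fell in CD45+ cells, MSC and MuSC by 0.61, 0.67 and 0.69.

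Nfkbia, the inhibitor that NF-kB induces to shut itself off, rose in every population. It averaged 2880 ± 726 CPM in injured CD45+ cells, against 423 ± 123 CPM uninjured (2.77 ± 0.19, adjusted p = 3.04e-10), and rose by 0.58, 0.91 and 1.04 in CD31+ cells, MSC and MuSC. Tnfaip3 (A20) moved apart from it: it rose in CD45+ cells by 1.98 ± 0.35 and fell in MuSC by 1.08 ± 0.39 (adjusted p = 9.16e-05 and 0.032). Of the 6 negative regulators, CD31+ cells had 2 rises, CD45+ cells 3, MSC 2 rises and 1 fall, and MuSC 1 rise and 2 falls. Over all genes, the shares that rose were 14.1%, 16.0%, 18.3% and 21.4%, and 23.6% and 17.5% fell in MSC and MuSC.

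The proteases and carriers that release TNF from the cell surface were followed as a list. Of 5 genes for shedding, 3 rose in CD45+ cells, namely Adam17 (the TNF converting enzyme), Adam10 and Rhbdf2 (which carries Adam17 to the surface). Rhbdf1 fell there. Of all genes, 16.0% rose and 18.5% fell in CD45+ cells. Adam17 averaged 87.1 ± 8.82 CPM in injured CD45+ cells, against 53.5 ± 1.63 CPM uninjured, and Rhbdf2 142 ± 11.9 CPM, against 43.6 ± 13.9 CPM. In the other populations 0 rose by edgeR, also 0 at an unadjusted p below 0.05, and 2 fell in CD31+ cells, 3 in MSC and 2 in MuSC. Over all genes, 14.1%, 18.3% and 21.4% rose in these populations, and 9.30%, 23.6% and 17.5% fell. Adam17 fell in MSC to 30.4 ± 5.33 CPM, against 67.3 ± 8.11 CPM uninjured, and in CD31+ cells by 0.55. Timp3, an inhibitor of Adam17, fell in MSC to 93.9 ± 52.1 CPM, against 419 ± 89.0 CPM uninjured (-2.16 ± 0.29, adjusted p = 5.33e-06), and in MuSC by 0.83. Rhbdf2 fell in MuSC by 1.31 ± 0.28 (adjusted p = 6.52e-04).

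**Figure D5:**
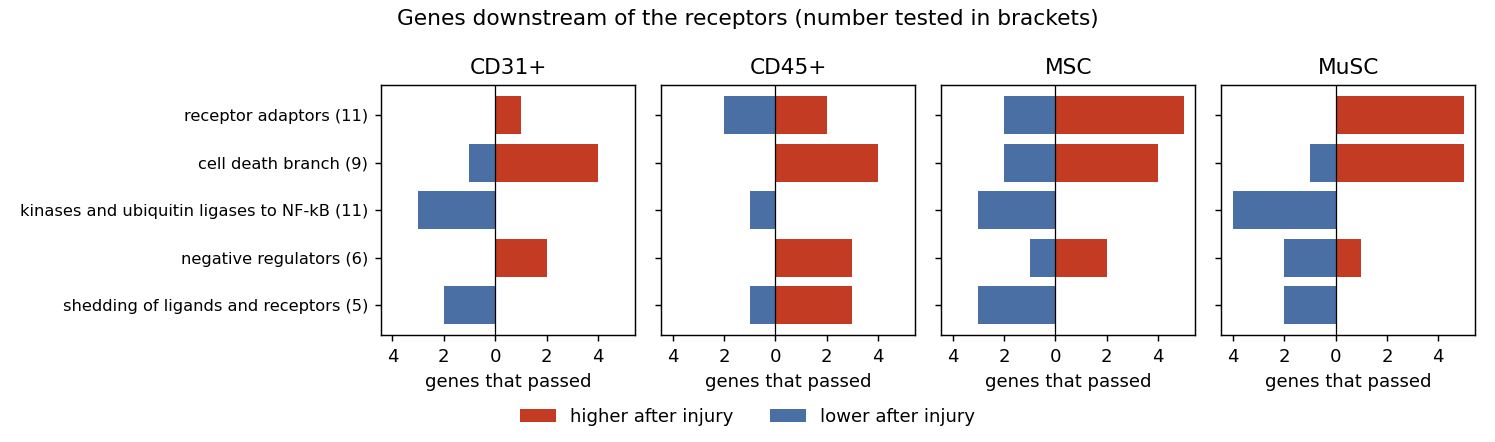
Number of genes that rose (red, right of 0) or fell (blue, left of 0) after injury in 5 lists, by population, at an adjusted p below 0.05. The lists are those downstream of the receptors and the list for shedding of ligands and receptors. The cell death list has 4 or 5 rises in each population, and the list of kinases and ubiquitin ligases has 0 rises and 1 to 4 falls.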

How the data were processed

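RNA was sequenced from 24 libraries, 3 in each of 8 groups, from oligo(dT)-primed and PCR-amplified cDNA cut with Nextera XT, as paired reads of 25 bases, per the labels' protocols. Reads were aligned to mm10 with STAR 2.5.4 and counted with featureCounts, per the submitters' processing notes; the sources used here name neither the counting settings nor the annotation. The deposited values are raw counts per gene symbol, made by the authors.

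From these counts, edgeR 4.0.16 (filterByExpr, TMM scaling, 1 mean per group over all 24 libraries, robust quasi-likelihood test, 16 residual degrees of freedom) tested 16263 of 52997 symbols. P-values were adjusted by Benjamini-Hochberg within each comparison, with a threshold of 0.05. Standard errors are approximate (the absolute log2 change over the square root of F). CPM values are the deposited counts divided by the TMM-scaled library total. Where a group had 3 or fewer counts over its libraries, bounds against 3 counts or ratios with 95% exact binomial intervals replace fitted folds. P-values measure the spread between libraries, which the labels call biological replicates; separate animals are not stated. Replicates of a group differed by more than sampling noise, so none was counted as a duplicate.

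The members and gene lists were chosen with earlier results of these data known. By rule, library values are given for the members with the largest passing rises (up to 5) and falls (up to 4) per population at 10 CPM or more, those highest in an uninjured population (up to 4), the 6 with the smallest p for a difference in response, and their partners, and for up to 3 genes per downstream list and population by smallest adjusted p. Library values of other members, and Birc2, Ikbkb and other downstream genes outside that rule, were chosen after their values were seen. Alternatives were RLE scaling, DESeq2 1.42.0, no filter, a stricter filter, the replicate number as a block, the 6 libraries of a population alone, and each library left out. Member calls were checked under them. Calls of genes in the downstream lists, which here include the shedding list, were not. Leaving out MuSC injured libraries 2 and 3 was added after seeing the data. The code was tested on simulated counts. Gene positions and exon overlaps come from GENCODE vM21 (GRCm38), and promoter windows from RefSeq (GRCm38.p6).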

Additional observations from a re-analysis of the deposited data

Results flagged for a closer look

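The response to injury differed between the 4 populations for 21 members, by an F test with 3 degrees of freedom (edgeR, 24 libraries, p adjusted over all genes); 35.9% of all genes passed the same test. Among the ligands these were, with the adjusted p in brackets, Tnf (5.45e-06), Tnfsf13 (0.0031), Tnfsf9 (0.0172), Tnfsf11 (0.0231) and Fasl (0.0444). Among the receptors these were Tnfrsf23 (3.28e-05), Tnfrsf12a (4.54e-05), Tnfrsf26 (0.000264), Tnfrsf14 (0.000443), Tnfrsf1a (0.00165), Eda2r (0.00243), Fas (0.00261), Tnfrsf21 (0.0183), Tnfrsf11b (0.0408), and further Tnfrsf25 (0.000912), Tnfrsf13c (0.00498), Tnfrsf4 (0.00719), Cd40 (0.00722), Tnfrsf17 (0.028), Tnfrsf13b (0.0348) and Tnfrsf18 (0.0441). For Tnf, Tnfsf11, Fasl, Tnfrsf23, Tnfrsf26, Tnfrsf25, Eda2r, Tnfrsf13c, Tnfrsf4, Cd40, Tnfrsf17, Tnfrsf13b and Tnfrsf11b, at least 1 population had 3 or fewer counts in a condition, and its change in the test has no firm size. The count was 17 without CD31+ injured library 1, 19 without CD45+ injured library 3 and 15 without MuSC injured libraries 2 and 3.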

How the results depend on the processing

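Of 59 calls of members after injury, 36 passed under every alternative run and 23 were lost under at least 1; 16 further changes passed only under an alternative. The rises in CD31+ cells (5) numbered 3 with DESeq2, 3 under RLE scaling and 11 without the filter, and the falls there (5) numbered 3 without the filter. The rises in MuSC (9) numbered 4 with the 6 MuSC libraries alone and 3 without MuSC injured libraries 2 and 3, where the falls (5) numbered 3. In the fit of 6 libraries, Tnfrsf11b, Tnfrsf23, Cd40 and Tnfrsf4 no longer passed the filter on low counts and were not tested, and Tnfrsf22 was tested and missed the threshold (adjusted p = 0.0755); the other fit had 2 libraries fewer. Without the filter, 5 members were highest in uninjured CD31+ cells (8 with it) and 1 in injured MSC (0 with it). Beyond the losses given with each gene, Cd27 in CD31+ cells and MSC, Eda2r in CD45+ cells and Tnfrsf11b in MuSC were lost without the filter. The stricter filter lost Cd27 in MSC, Tnfrsf13b in CD45+ cells and Tnfrsf22 in MuSC. The replicate block lost Tnfrsf13b and Eda2r in CD45+ cells and Tnfrsf22 in CD31+ cells. Leaving out MuSC injured libraries 2 and 3 lost Tnfrsf22 and Eda2r in MuSC. The Cd40 change in MuSC was fitted at -2.03 without MuSC injured libraries 2 and 3, on 0 against 1 count, which gives no firm size or sign. The cause of the other shifts was not tested.

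Leaving out 1 library at a time gave 3 to 6 rises and 4 to 5 falls in CD31+ cells, 7 to 11 and 9 to 13 in CD45+ cells, 7 to 8 and 4 to 8 in MSC, and 4 to 7 and 3 to 5 in MuSC. It gave 6 to 8, 16 to 16, 0 to 0 and 2 to 2 members highest in uninjured CD31+ cells, CD45+ cells, MSC and MuSC, and 4 to 5, 11 to 13, 0 to 1 and 3 to 3 in the injured ones. The members whose response differed numbered 16 to 21.

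Within a population, replicate numbers showed no pairing of injured with uninjured libraries: the deviations of same-numbered libraries correlated between -0.0801 and 0.0928 over 12 pairs. Pairing between populations of the same condition was not examined, so libraries of different populations may still share mice. With the replicate block, 4 members rose and 5 fell in CD31+ cells, 10 and 10 in CD45+ cells, 7 and 5 in MSC and 8 and 5 in MuSC, and the response differed for 20. A member under 0.389 to 1.02 CPM in a library is below 3 counts, which limits the ligands of MSC and MuSC most.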
